A study of Homo sapiens with 6 samples.

Results

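In 12Z cells given frankincense extract, 205 protein-coding genes had shorter transcripts than in cells given vehicle. Each had at least 250 expected counts in all 6 libraries, a length in every frankincense library below that in every vehicle library, and a mean frankincense length of at most 0.85 of the mean vehicle length. They were taken from 9357 protein-coding genes that met the count minimum, of 60616 gene identifiers in all. Length here is the value that the quantification program RSEM gives each gene in each library: the mean length of the gene's annotated transcripts, weighted by their estimated abundance. It moves when a gene's reads are assigned to a different mix of long and short transcripts, and it says nothing about the transcripts beyond that. The lengths chose these genes, so their lengths are described below without a test. Calls of their counts and TPM come from fits over all genes on the same libraries, and are given as a description from which nothing is read.

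12Z is an immortalized human endometriotic cell line, used as a model of endometriosis, in which tissue resembling the uterine lining grows elsewhere. All cells were labelled wild type and grew in DMEM/F12 medium with 10% charcoal-stripped serum, which is low in steroid hormones. One group received 70 ug/mL of frankincense extract, made from the resin of Boswellia trees, in DMSO for 12 h, and the other received DMSO alone, the vehicle. Each group had 3 libraries made from 1.5 ug of total RNA. Whether the 3 replicates of a group were separate cultures is not stated, so p-values given for other genes reflect only the spread between these libraries, and that spread may be technical.

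A human gene often gives rise to several messenger RNAs. RNA polymerase II transcripts are cut and given a poly(A) tail at a site that usually lies downstream of an AATAAA-like signal, and many genes carry more than one such site. Use of an earlier site within the last exon shortens the 3′ untranslated region, which holds binding sites for microRNAs and proteins, whereas use of a site inside an intron also truncates the coding sequence. Gene length can move in the same way when splicing or the start site changes, and the deposited values do not separate these routes.

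The 6 libraries held 22615150 to 27615196 expected counts. Frankincense replicate 3 stood apart: the chi-square statistic of counts over genes, per degree of freedom, was 12.9 and 11.2 between it and frankincense replicates 1 and 2, 3.93 between those, and 3.65 to 4.18 between vehicle libraries. The summed TPM, the transcript abundance per unit of length scaled to an equal total in each library, of 6 epithelial markers was 1570 to 1600 in vehicle and 1360 to 1420 in frankincense, with 4 markers at 1 TPM or more in every library and CDH1 (E-cadherin) near 0. The keratins KRT8, KRT18 and KRT19 made up most of this sum, while KRT7 was at 5.74 to 5.92 TPM in vehicle and 11.7 to 14.2 in frankincense and EPCAM at 0.92 to 1.37 and 1.75 to 2.18. That of 6 mesenchymal markers was 3710 to 3780 in vehicle and 2780 to 2970 in frankincense, with 5 at 1 TPM or more in every library. The collagen gene COL1A1 went from 1430 to 1460 TPM in vehicle to 646 to 800 in frankincense, whereas VIM was at 2020 to 2100 and 1940 to 2010 and CDH2 at 53 to 61.5 and 74.2 to 102. The 4 endothelial markers summed to at most 0.27 TPM. Of 4 immune markers only CD68, a lysosomal protein, reached 1 TPM in every library, and the sums were 28.3 to 31.2 in vehicle and 34.6 to 63.8 in frankincense, with CD3E at 0. The part of these marker differences in the lengths was not tested, and in bulk RNA fewer cells of a type and less RNA per cell cannot be told apart.

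The ends of annotated transcripts of 4 of the genes are shown as examples of early and late ends between which the annotation of a gene can differ. A gene's length is a mean over all its transcripts and is not bounded by the pair shown. SHC3 encodes a signalling adaptor, CD2BP2 a splicing factor, PDXK the kinase that activates vitamin B6, and SPTLC2 a subunit of the enzyme that begins sphingolipid synthesis. For each gene the last 30 bases of its longest transcript and of 1 shorter transcript follow, 5′ to 3′, from GENCODE 29 on GRCh38, with the poly(A) signal AATAAA or its common variant ATTAAA in capitals. Their genomic positions are given with the strand of the gene.
SHC3 long, chr9:89005771-89005800, minus: tgcaggcAATAAAggctgttgtgaaaagta
SHC3 short, chr9:89037366-89037395, minus: attgctaagtttAATAAAtgcagttaaatc
CD2BP2 long, chr16:30350766-30350795, minus: tAATAAAttggtgtggttttcaacctctca
CD2BP2 short, chr16:30352847-30352876, minus: cctttcccAATAAAagcctttagttgtgta
PDXK long, chr21:43762278-43762307, plus: aAATAAAtattttcatggcggtcgtgttga
PDXK short, chr21:43738832-43738861, plus: ctgtactcAATAAAtagcgtggagaccaga
SPTLC2 long, chr14:77505997-77506026, minus: ttttgccctAATAAAatattcagaaagata
SPTLC2 short, chr14:77535600-77535629, minus: ttcattcattcATTAAAtatttgtttcata

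In CD2BP2 the short transcript has the same coding length as the long one, 1023 bases, and ends 2081 bases earlier in the genome, so the pair differs in the 3′ untranslated region, of 2222 and 141 bases. In the other 3 genes the short transcript ends 23446 to 31595 bases before the long one and codes for less protein. The coding length falls from 1782 to 315 bases in SHC3 and from 936 to 444 in PDXK. The SPTLC2 short transcript, with 1219 coding bases against 1686, is annotated without a complete 5′ start. These transcripts were chosen after the names were seen, and the deposited gene-level values do not say which transcript the reads came from. Both motifs were searched on the transcript's own strand. AATAAA was present in the last 30 bases of 320 of 900 protein-coding transcripts of the 205 genes, 35.6%, and in 40.3% of those of all genes that met the count minimum; either motif was present in 47.1% and 50.8%.

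Lengths lay without overlap between groups in many genes, more often downward: every frankincense library was below every vehicle library in 1255 of the 9357 genes, 13.4%, and above in 845, 9.03%. At the size the rule asks for, 205 genes were shorter, against 46 that met the mirror rule and were longer. The ratio of mean frankincense to mean vehicle length ran from 0.610 to 0.84999 over the 205, with a median of 0.801, whereas the median over all 9357 genes was 0.9999. Of the 205 genes, 105 lay between 0.80 and 0.85, 64 between 0.75 and 0.80, 24 between 0.70 and 0.75, 8 between 0.65 and 0.70, and 4 below that. Their median length was 3884 bases in vehicle and 2987 in frankincense.

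**Figure D1:**
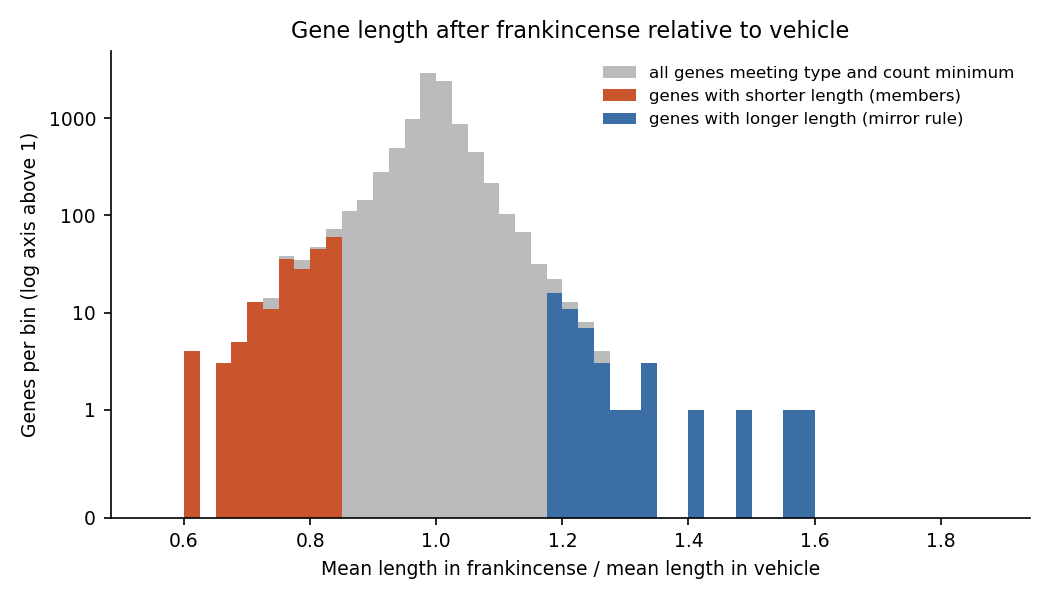
Number of genes (vertical axis, logarithmic above 1) by the ratio of mean frankincense to mean vehicle length, for 9357 protein-coding genes that met the count minimum. The 205 genes with shorter lengths are orange and the 46 that met the mirror rule are blue, and the left tail holds more genes than the right.

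Genes near the threshold differed little from one another. Just inside it, MPRIP, a regulator of myosin phosphatase, measured 2851, 2849 and 2983 bases in vehicle and 2366, 2330 and 2684 in frankincense, a ratio of 0.84999. DDX51, an RNA helicase of ribosome assembly, measured 2662, 2641 and 2747 bases against 2280, 2261 and 2300, a ratio of 0.84959, which became 0.860 without vehicle replicate 3. Just outside it, PML, the organiser of nuclear bodies, had 3012, 3042 and 3039 bases against 2469, 2512 and 2751 and a ratio of 0.85048, and the protease gene PRSS53 had a ratio of 0.85081.

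The rule asks for a shorter length in all 3 frankincense libraries, which favours median ratios that lie close together. Single genes could still vary widely between these libraries, as TLN2 does below. The median ratio to the vehicle mean was 0.7997 in replicate 1, 0.792 in replicate 2 and 0.808 in replicate 3. Replicate 3 was the longest of its group in 103 of the 205 genes, replicate 1 in 56 and replicate 2 in 46. The spread within a group was wider in these genes than in general: the range over the 3 vehicle libraries was 7.61% of their mean in the median gene, against 3.57% over all genes that met the minimum, and over the frankincense libraries 10.1% against 4.45%.

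When the rule was applied to 5 libraries, the library left out gave lengths the choice had not used. Without frankincense replicate 3 the rule chose 248 genes, 186 of them among the 205, and in 215 of the 248, 86.7%, the length in replicate 3 lay below every vehicle library. For replicate 1 this held in 216 of 235 genes, 91.9%, and for replicate 2 in 211 of 231, 91.3%. The left-out vehicle library lay above every frankincense library in 91.1% to 95.2% of the genes chosen without it. The median ratio of the left-out frankincense library to the vehicle mean was 0.818, 0.803 and 0.835 for replicates 1, 2 and 3. For the mirror rule the left-out library lay on its side in 72.9% to 81.2% of genes. The left-out library was compared with the group that had also served the choice. Choosing genes by that group's lengths favours the side counted, and no share for genes not chosen was computed. Nothing is therefore read from how high these shares are.

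Most of the genes had long transcripts. When the 9357 genes were divided into 4 equal bins by vehicle length, the bins held 10, 22, 64 and 109 of the 205 from the shortest to the longest, or 0.43%, 0.94%, 2.74% and 4.66% of each. The mirror rule gave 6, 11, 16 and 13. The median longest annotated transcript was 6741 bases in the 205 genes, 6182 in the 46 longer genes and 3849 in all that met the minimum. The median longest 3′ untranslated region was 4657, 3544 and 1712 bases in the same order. The median number of transcripts per gene was 9 both in the 205 genes and in all, and no gene of the 205 had a single transcript.

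In 184 of the 205 genes, 89.8%, the longest annotated transcript was also the one that reached farthest downstream, to within 50 bases, against 78.3% of the longer genes and 80.2% of all. A transcript annotated as retaining an intron was listed for 145 of the 205, 70.7%, against 54.3% and 63.0%. As a share of the longest annotated transcript, the median length went from 61.8% in vehicle to 48.5% in frankincense. Their median vehicle abundance was 12.7 TPM, against 25.7 over all genes that met the minimum. No test of these features was run, since choosing genes by their length ratio bears on them.

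The smallest share of a gene's transcripts that must have moved from its longest to its shortest annotated form could be computed for 176 of the 205 genes whose transcripts all matched GENCODE 29 and whose lengths stayed within the annotated range. The median was 13.0% and the highest 33.95%, and 26 genes needed at least 20%. Among genes with exactly 2 annotated transcripts, this share is the switch itself. The shares below are of estimated molecules, worked out from the deposited lengths, and are not shares of reads. In SHC3 a 569-base molecule yields far fewer reads than the 9768-base one, so its share rests on a small part of the reads. In SHC3 the 569-base transcript made up 4.28%, 1.61% and 12.6% of transcripts in the vehicle libraries and 31.3%, 45.2% and 30.2% in the frankincense libraries, or 6.16% ± 5.71 and 35.6% ± 8.34 (SD, n = 3). The frankincense values all lay above the vehicle values, as the rule requires. In SNX33, a sorting nexin of endocytosis, the 2265-base transcript made up 50.2%, 53.3% and 55.3% in vehicle against 69.3%, 71.8% and 66.1% in frankincense, or 52.9% ± 2.55 and 69.1% ± 2.89 (SD, n = 3). The other 2-transcript gene, TRIM44, had a vehicle length beyond its longest GENCODE 29 transcript and gave no share.

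**Figure D2:**
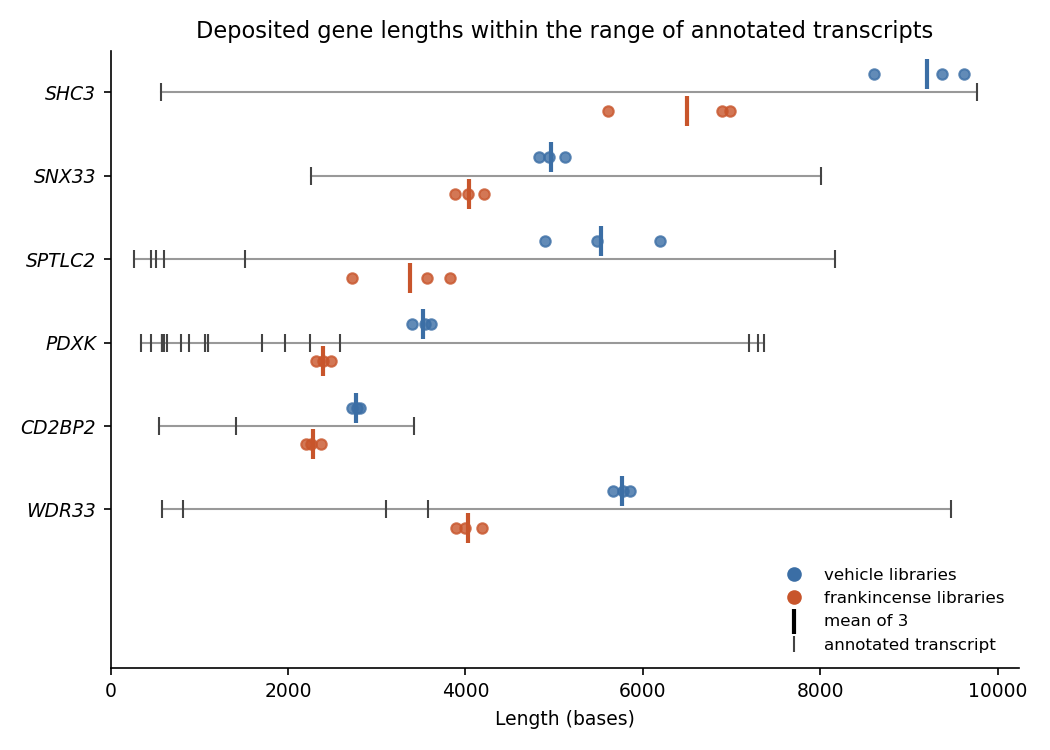
Deposited gene length in bases (horizontal axis) of 6 genes in each vehicle (blue) and frankincense (orange) library, with the mean of 3 as a coloured bar and annotated transcript lengths as dark ticks on a grey line. In each gene the frankincense points lie to the left of the vehicle points, and both lie between the shortest and the longest transcript.

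TLN2, which encodes the focal adhesion protein talin 2, had the smallest ratio, 0.610. Its length was 10795, 8942 and 9228 bases in the vehicle libraries and 4471, 5971 and 7231 in the frankincense libraries, so that the frankincense libraries spread widely but stayed below the vehicle ones. SPTLC2 went from 4894, 6198 and 5488 bases to 2725, 3567 and 3827, also a ratio of 0.610. AGO3, an Argonaute protein that carries small RNAs, went from 10238, 10203 and 11215 to 6522, 6295 and 6703 bases. The AGO3 lengths lay closer together in frankincense than in vehicle, where replicate 3 was above replicates 1 and 2. Its ratio of 0.617 became 0.637 without vehicle replicate 3.

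PDXK measured 3545, 3617 and 3404 bases in vehicle and 2390, 2317 and 2484 in frankincense. WDR33, which recognises the poly(A) signal, measured 5862, 5782 and 5662 bases against 3999, 4184 and 3896. In both genes the gap between groups was several times the range within either. SLFN13, a nuclease of the Schlafen family, had short lengths to begin with, 1712, 1677 and 1716 bases, and 1165, 1125 and 1078 after frankincense. NLE1, which acts in assembly of the large ribosomal subunit, went from 3161, 2990 and 3018 to 2260, 1983 and 1886 bases.

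Small ratios were also found in METTL8, an RNA methyltransferase of mitochondria, at 0.665, in JADE2, a subunit of a histone acetyltransferase complex, at 0.687, in ZC3H8, a zinc finger protein, at 0.692, and in ATF7IP, a partner of the histone methyltransferase SETDB1, at 0.695. METTL8 lengths were 3912, 3983 and 3551 bases in vehicle and 2900, 2626 and 2087 in frankincense, with the widest relative frankincense spread of these 4. In JADE2 frankincense replicate 3, at 3462 bases, lay nearer to the vehicle libraries than replicates 1 and 2, at 2982 and 2878.

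**Figure D3:**
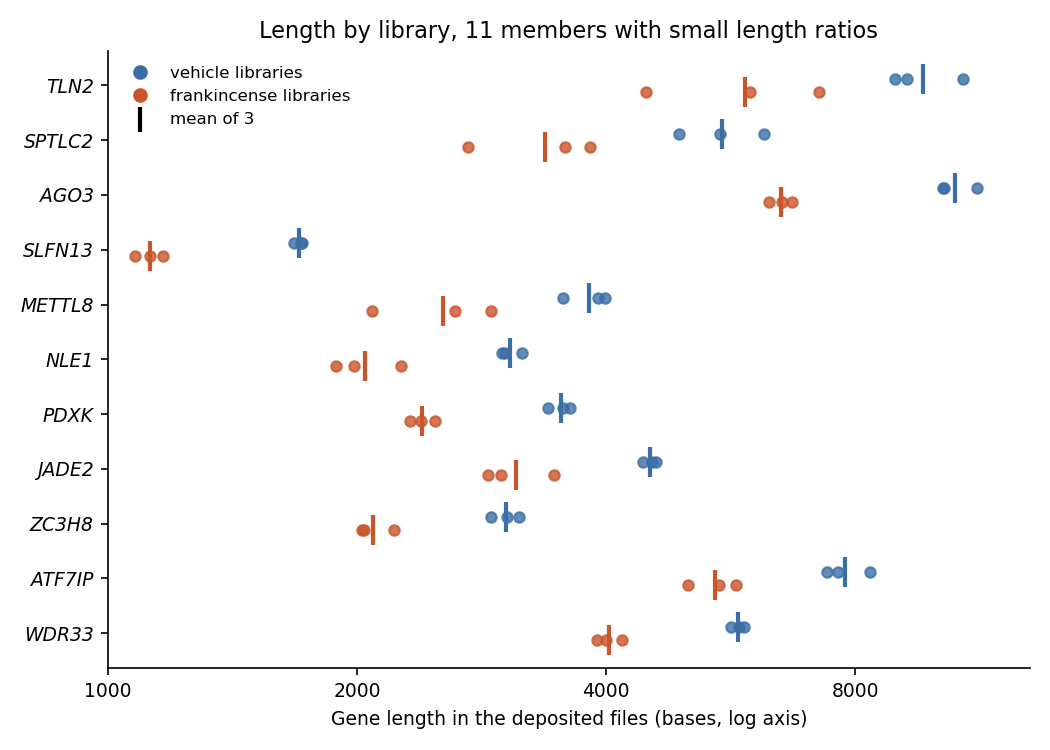
Deposited gene length in bases (horizontal logarithmic axis) in each vehicle (blue) and frankincense (orange) library for 11 of the genes with the smallest length ratios, with the mean of 3 as a bar. No frankincense point reaches a vehicle point in any of the 11 genes, and TLN2 has the widest frankincense spread, from 4471 to 7231 bases.

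Shorter length came with read counts in both directions. By edgeR's quasi-likelihood test at an adjusted p under 0.05, 76 of the 205 genes had higher counts after frankincense, 83 lower, and 46 were not called. Of all 16719 genes tested, 31.9% were called higher and 31% lower, and of the 9357 genes that met the count minimum 38.5% and 32.4%. By limma on log2(TPM + 1), 146 of the 205 were called higher, 9 lower, and 50 were not called. The background was 43.8% higher and 14.8% lower over all genes tested, and 54.8% and 13.1% over those that met the minimum. Since the genes were chosen on the same libraries, nothing is read from these counts. Without frankincense replicate 3 the counts were 80 higher and 90 lower, and the TPM calls 142 higher and 10 lower.

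The units differ by construction. TPM divides the count by the effective length, and over the 9357 genes log2 count minus log2 TPM followed log2 effective length to within 0.0069 after centring each library. A gene that shortens therefore has a larger TPM change than count change. The TPM change minus the count change had a median of 0.55 (log2) in the 205 genes, from 0.31 to 0.93, of 0.24 in all genes that met the minimum, and of -0.07 in the 46 longer genes. The value for all genes is not 0 because the TPM scale itself shifted: the median log2 TPM change over all genes tested was 0.20, and it was 0.05 with mitochondrially encoded genes left out and -0.0012 with TMM factors applied to TPM. The median over the 205 genes was 0.52, 0.35 and 0.29 on these scales. Their median log2 count change was -0.06.

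**Figure D4:**
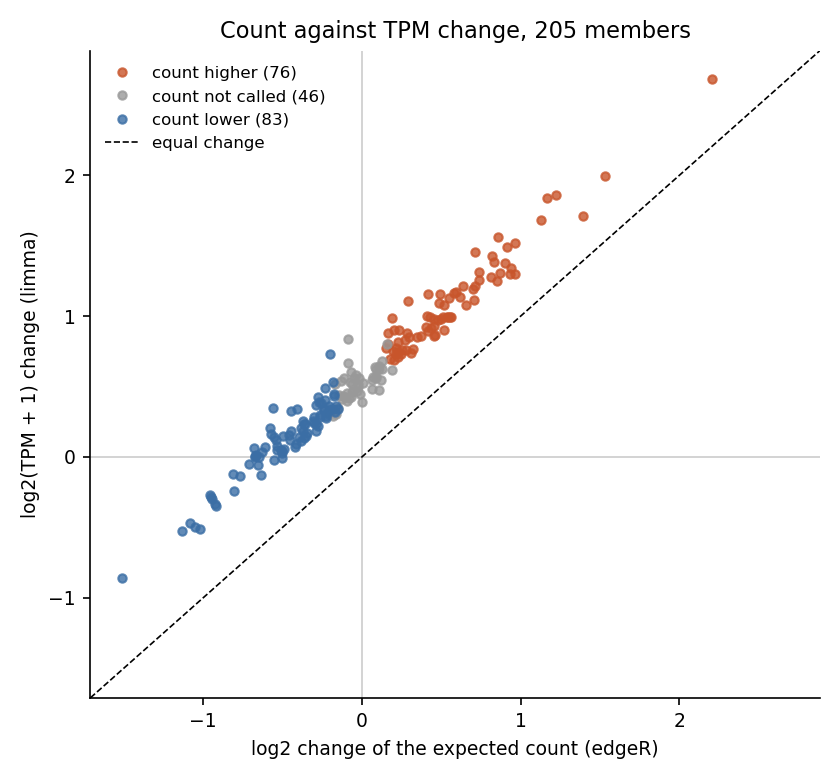
log2(TPM + 1) change (vertical axis) against log2 change of the expected count (horizontal axis), frankincense relative to vehicle, for the 205 genes, coloured by the count call (76 higher, 46 not called, 83 lower). All points lie above the dashed line of equal change, and 92 genes have a negative count change with a positive TPM change. Of the 9357 genes that met the count minimum, 2010 have this pairing.

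In 26 of the 205 genes the count was called lower and the TPM higher, a pairing that choosing genes for shorter length favours by construction. A further 48 genes had a lower count and no TPM call, 44 had no count call and a higher TPM, 76 were higher in both, 9 were lower in both, and 2 were called in neither. Of all 9357 genes that met the minimum, 48 had a lower count and a higher TPM, and 1760 a lower count and no TPM call. Another 1511 had no count call and a higher TPM, 3564 were higher in both, 1224 lower in both, and 1214 called in neither. Nothing is read from the counts in the 205 genes beside these. ATF7IP shows the opposite signs: its counts were 934, 1183 and 1195 in vehicle and 940, 930 and 921 in frankincense, while its TPM was 6.78, 7.13 and 6.88 against 10.3, 10.0 and 10.1. Its log2 count change was -0.23 ± 0.06 (SE) and its log2 TPM change 0.49 ± 0.08. By count, not scaled for library depth, vehicle replicate 1 lay within the range of the frankincense libraries, and by TPM the groups did not overlap.

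In SPTLC2 the count did not differ by the test, with 881, 1126 and 1152 in vehicle and 953, 896 and 1090 in frankincense, yet TPM went from 10.1, 8.14 and 10.2 to 19.9, 15.1 and 18.3. Its log2 count change was -0.09 ± 0.08 and was called, at -0.17, without frankincense replicate 3. WDR33 had counts of 2153, 2653 and 2552 against 2410, 2237 and 2209, and TPM of 20.4, 20.6 and 21.9 against 33.5, 31.9 and 36.4. The counts of the groups, which are not scaled for library depth, overlapped in both genes, and the TPM values, which are scaled, did not. DENND5B, which activates Rab proteins, and DNAL1, a light chain of ciliary dynein, had log2 count changes of -0.07 ± 0.07 and -0.04 ± 0.07 and TPM changes of 0.60 ± 0.09 and 0.58 ± 0.11. The sign of both count changes turned with scaling by library total.

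CD44, the hyaluronan receptor, was the most abundant of the genes. Its length was 2735, 2881 and 2832 bases in vehicle and 2169, 2170 and 2031 in frankincense. Its counts were 10043, 12063 and 12683 in vehicle and 7236, 6756 and 7626 in frankincense, without overlap, a log2 change of -0.67 ± 0.06, whereas its TPM was 212, 194 and 224 against 193, 193 and 252. The TPM change was 0.01 ± 0.11 and depended on the scale and the libraries. It was -0.24, and called lower as the count was, with TMM factors on TPM, -0.18 without mitochondrially encoded genes, -0.12 without frankincense replicate 3 and -0.05 without vehicle replicate 2. On the deposited scale the groups overlapped by TPM and not by count. CD44 was in the list of extracellular matrix and adhesion genes, 1 of 28 that met the minimum, beside 2.19% of all genes.

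After CD44, the highest vehicle TPM values were those of ANKRD10, PTP4A2, RER1, CARHSP1 and ERCC1. ANKRD10, an ankyrin repeat protein, measured 1289, 1311 and 1289 bases against 1063, 949 and 1024, with a count change of -0.27 ± 0.06 and a TPM change of 0.39 ± 0.05. That TPM change was 0.21 without mitochondrially encoded genes and 0.14, no longer called, with TMM factors. PTP4A2, a phosphatase of the PRL family, measured 1993, 2209 and 2104 bases against 1652, 1530 and 1623, and its count and TPM were both higher, by 0.23 ± 0.07 and 0.90 ± 0.07. ERCC1, a subunit of a DNA repair nuclease, had the tightest lengths of these genes, 1485, 1505 and 1481 bases against 1238, 1238 and 1240, and its counts overlapped, with a change of -0.03 ± 0.05. RER1, which returns proteins to the endoplasmic reticulum, had a ratio of 0.836 and a count change of -0.11 ± 0.05 that was called only without frankincense replicate 3 or with a stricter filter. CARHSP1, an RNA-binding protein, was lower in both units, with counts of 3296, 4022 and 3964 against 1963, 1783 and 1525.

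The 5 largest count changes upward were in STC2, GMPPB, TMEM192, FKBP11 and ZC3H8. STC2, a secreted glycoprotein and a target of the stress factor ATF4, had counts of 1621, 2118 and 2083 in vehicle and 8771, 8301 and 9526 in frankincense, a log2 change of 2.21 ± 0.07. Its lengths were 4891, 5216 and 5014 bases against 4494, 4162 and 3763, and its TPM change was 2.69 ± 0.13. It was 1 of 28 genes of the ATF4 list that met the minimum to be in the set, which holds 2.19% of all genes that met it. Lengths lay wholly below vehicle in 7 of the 28 and wholly above in 7, beside 13.4% and 9.03% of all. By count, 26 of the 30 tested genes of the list were called higher, beside 31.9% of all genes tested.

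GMPPB, which makes GDP-mannose for protein glycosylation, had a count change of 1.53 ± 0.07 and went from 3626, 3780 and 3879 to 3057, 2922 and 3022 bases. TMEM192, a lysosomal membrane protein, had one of 1.39 ± 0.10, and FKBP11, a prolyl isomerase of the endoplasmic reticulum, one of 1.22 ± 0.05. FKBP11 lengths were 1124, 1138 and 1129 bases against 902, 886 and 901, the groups being far apart relative to their spread. ZC3H8 counts were 352, 466 and 424 against 937, 966 and 858, a change of 1.17 ± 0.07. Of 23 genes of the unfolded protein response list that met the minimum, 0 were in the set, and at 2.19% of all genes fewer than 1 would be in a list of that size.

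At the other end, ADAMTS2, a protease that trims procollagen, had counts of 1247, 1568 and 1477 in vehicle and 519, 490 and 483 in frankincense, a log2 change of -1.51 ± 0.06. Its lengths were 4574, 4494 and 4992 bases against 4307, 3282 and 3807, and frankincense replicate 1 came close to the vehicle libraries. CHST12, a chondroitin sulfotransferase, had a count change of -1.13 ± 0.09, and 1 frankincense library, replicate 3 at 2977 bases, was much shorter than the other two at 3724 and 3805. CARHSP1 changed by -1.09 ± 0.07, GPRC5A, an orphan receptor induced by retinoic acid, by -1.05 ± 0.06, and AHNAK, a giant scaffold protein, by -1.02 ± 0.06. AHNAK lengths were 14822, 15280 and 14326 bases against 12031, 12227 and 13097. All 5 were among the 9 genes that were lower in both units.

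By known role, 147 of the 205 genes could be placed in 10 groups, formed after the names were seen, and 58 were not grouped. Beside the counts in each group stand the shares over all genes that met the minimum, 38.5% higher and 32.4% lower by count and 54.8% higher and 13.1% lower by TPM, and nothing particular to a group is read from them. The largest group held 24 chromatin proteins and transcription factors. Of these 14 had lower counts, 6 higher and 4 were not called, while by TPM 14 were higher and 0 lower. Besides JADE2 and ATF7IP it held CBX5, which encodes heterochromatin protein 1 alpha, with a count change of -0.50, RXRA, the retinoid X receptor alpha, with -0.49, FOXP1, a forkhead factor, with -0.44, and YY1, a zinc finger factor, with -0.24. In the other direction were HDAC9, a histone deacetylase, at 0.97 and CREB1, the cyclic AMP response factor, at 0.18.

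The group of RNA polymerases, ribosome assembly and RNA processing held 19 genes, of which 12 had higher counts, 4 lower and 3 were not called, beside 38.5% and 32.4% of all genes that met the minimum. It held AGO3, METTL8, NLE1, ZC3H8, DDX51 and WDR33 and 2 polymerase subunits, POLR3D at 0.82 and POLR1A at 0.55 by log2 count. The AGO3 count change of 0.19 ± 0.07 lost its call without vehicle replicate 2, at 0.17, or vehicle replicate 3, at 0.14, and also with DESeq2, at 0.20, or a filter of at least 5 CPM in 3 libraries, at 0.16. EIF5, which triggers GTP hydrolysis at the start codon, was in this group too: its counts were 2854, 3546 and 3483 against 6760, 7299 and 7316, and its lengths 3302, 3207 and 3220 bases against 2779, 2506 and 2544. It was 1 of 43 translation factors that met the minimum, beside 2.19% of all genes. CD2BP2 lengths were 2816, 2719 and 2775 bases against 2258, 2201 and 2372, with counts that overlapped and a change of 0.09 ± 0.05.

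Kinases and other signalling proteins numbered 23, with 11 lower by count, 6 higher and 6 not called. SHC3 counts were 937, 1182 and 1131 against 759, 685 and 723, a change of -0.57 ± 0.06, and its TPM change was 0.16 ± 0.11. EIF2AK2, the kinase PKR that senses double-stranded RNA, had the smallest ratio of the group, 0.701, and a count change of -0.41. BRAF and MAPK8, kinases of the ERK and JNK pathways, had ratios of 0.737 and 0.843 and count changes of 0.49 and 0.13, GSK3B, a kinase of insulin signalling, one of -0.31, and GRB10, an adaptor that restrains insulin signalling, one of 0.94.

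Among 18 genes of lipid and sugar metabolism 8 had higher counts, 7 lower and 3 were not called. PDXK counts were 3476, 4109 and 3809 against 4629, 4442 and 4748, a change of 0.29 ± 0.05, and its TPM was 55.7, 51.9 and 55.5 against 111, 118 and 126, a change of 1.11 ± 0.06. Of 22 genes of the cholesterol synthesis and uptake list that met the minimum, 0 were in the set, beside 2.19% of all genes that met it. Of 18 genes of vesicle traffic and membranes 9 were higher, 5 lower and 4 not called. ATG7, the activating enzyme of autophagy conjugation, was 1 of 30 lysosome and autophagy genes that met the minimum, beside the same 2.19%. Its lengths were 3450, 3228 and 3790 bases against 2950, 3024 and 2731, and its count change was -0.08 ± 0.08.

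Adhesion, cytoskeleton and cilia genes numbered 17, with 4 higher by count, 8 lower and 5 not called. Of 11 genes of DNA repair and chromosome segregation 3 were higher and 3 lower, and KNL1, a kinetochore scaffold, and POLH, the polymerase that bypasses ultraviolet damage, were lower at -0.63 and -0.61. Of 40 genes of the mitosis and kinetochore list, which does not include KNL1, 0 were in the set. The set holds 2.19% of all genes that met the minimum, so nothing is read from that 0. Of 7 secreted proteins and proteases 6 were lower and 1, STC2, was higher. Both endoplasmic reticulum folding genes, FKBP11 and FKBP14, were higher, and of 8 channels and transporters 3 were higher and 2 lower. METTL2B, GTF2H2, SRGAP2 and RASA4 have near-identical copies, so their reads, and with them their lengths, are uncertain.

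Genes of the machinery that cuts and polyadenylates transcripts were counted from a list. Of 24 tested, 4 were called higher by count and 8 lower, with a median log2 change of -0.09, beside -0.0016 over all genes tested. WDR33 was the only one in the set of 205, and CPSF6, a subunit of cleavage factor I, which favours distal sites, met the mirror rule. CPSF6 measured 3451, 3560 and 3940 bases in vehicle and 4870, 4388 and 5377 in frankincense, and its TPM was 38.7, 34.8 and 34.2 against 21.8, 21.3 and 23.5. Its count fell by 0.50 ± 0.07 on the log2 scale (edgeR, adjusted p = 3.5e-05). Among all genes tested, 31.9% were called higher and 31% lower. Of the 24 listed genes, 23 met the count minimum. Over all genes that met it, 38.5% were called higher and 32.4% lower, with a median log2 count change of 0.038.

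FIP1L1, CPSF4 and CPSF2, subunits of the complex that binds the poly(A) signal or cuts the RNA, rose by 0.73 ± 0.06, 0.46 ± 0.05 and 0.45 ± 0.05 (edgeR, adjusted p = 4.1e-08, 1.6e-06 and 3.5e-06). RBBP6, a cofactor of cleavage, fell by 0.51 ± 0.05 (edgeR, adjusted p = 5.2e-07). Of 12 genes of the U1 small nuclear ribonucleoprotein, which blocks early cleavage, and of CDK12 and its partners, which sustain elongation, 6 were called higher and 4 lower. All 12 met the count minimum, and over all genes that met it the shares were 38.5% and 32.4%. PCF11, a cleavage factor that binds the polymerase and was called lower, is in both lists. LUC7L3, a U1-associated protein, fell by 0.57 ± 0.06 (edgeR, adjusted p = 6.4e-07). Of these 12, 0 were among the 205 genes and 2 had lengths wholly below vehicle, beside 2.19% and 13.4% of all genes that met the minimum. FIP1L1 TPM was 33.2, 33.5 and 30.1 in vehicle and 59.4, 62.5 and 57.4 in frankincense, and its length ratio was 1.05. The part of these genes in the lengths of the 205 was not tested.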

How the data were processed

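The 205 genes, their role groups and the gene lists were chosen with earlier results of these data known. The submitters' processing notes name the aligner STAR, the quantifier RSEM 1.3.1 and the build GRCh38, with the annotation release not given in the sources used here. The authors' deposited values, per the file headers, are expected counts (estimated reads, not always whole), TPM, and a length and effective length per gene, each a mean over transcripts weighted by abundance. Transcript-level values were not used here. No label says that the library kit kept strand, and overlapping and antisense genes cannot be separated.

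Positions, gene types and transcripts came from GENCODE 29. Of genes with 1 transcript, 95% had the deposited length (within 0.5 bases), so the authors' annotation is not quite this release. Rounded counts entered edgeR 4.0.16 under R 4.3.3 (filterByExpr filter, TMM, robust legacy quasi-likelihood fit, group term only, two-sided, Benjamini-Hochberg over 16719 genes). TPM was tested on log2(TPM + 1) with limma 3.58.1 with trend, over the same genes. That log scale understates changes of low genes. Called means an adjusted p under 0.05. Values after ± are SEs for log2 changes and SDs otherwise. No libraries were duplicates. Depth is given as total expected counts. Counts given per library are not scaled for depth, so whether they overlap between groups also depends on depth.

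Named by rule were the 12 smallest length ratios, the 6 highest vehicle TPM, the 5 largest and 5 smallest count changes, the 5 largest TPM changes with a negative count change, the 2 genes on either side of the threshold, members of the lists, and the 3 largest called changes in each direction of the 3′-end lists. Genes named besides, in the role groups, the sequences and the 2-transcript genes, were chosen after their values were seen. Alternatives were other thresholds and scalings, DESeq2 1.42.0, limma-voom, other filters, and each library left out. Some results these rules select are not reported here.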

Additional observations from a re-analysis of the deposited data

How the results depend on the processing

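The number of genes depended most on the ratio: 100 at a ratio of at most 0.80 and 382 at 0.90. It was 147 at a minimum of 500 counts, 257 at 100, 236 by effective length, 283 at 1 TPM or more in place of the count minimum, and 208 to 248 with 1 library left out. With medians of lengths, an alternative chosen after seeing the data, it was 213, of which 185 were shared. With 1 library left out, counts were called higher in 70 to 80 of the 205 genes and lower in 77 to 90, and TPM higher in 138 to 147 and lower in 7 to 10. TMM factors on TPM gave 115 higher and 20 lower, and leaving out mitochondrially encoded genes 123 and 13. Of the 24 cleavage and polyadenylation genes, 3 to 6 were called higher and 7 to 9 lower with 1 library left out, and 13 lower with at least 5 CPM in 3 libraries. Scaling by library total gave 84 members higher and 70 lower. Some uncalled changes turned sign. For TPM these were JADE2, from 0.209 to -0.0185 (TMM factors), and CD44, from 0.00872 to -0.244 (TMM factors, then called lower), -0.176 (without mitochondrially encoded genes) and -0.118 to 0.0736 with 1 library left out, the negative values being those without frankincense replicate 3 or vehicle replicate 2. For counts these were ERCC1 at 0.0492, DNAL1 at 0.0381 and DENND5B at 0.00545 under library total. With 1 library left out ERCC1 lay between -0.0454 and 0.0185 and DNAL1 between -0.0788 and 0.0159, the highest values being those without frankincense replicate 3. Fewer genes or samples enter some of these settings, and the cause was otherwise not tested. Same-numbered libraries had deviations that correlated at 0.05, 0.10 and 0.04, so the numbers were not taken to pair them. With a replicate block, 75 genes were higher and 85 lower by count, 147 and 9 by TPM, and 4 and 8 of the cleavage and polyadenylation genes. With 3 libraries a group and about 250 counts at the least, small length changes of weakly expressed genes cannot be seen.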
